A study of Mus musculus with 6 samples.

Results

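The genes described are 10 regulators and markers of mesenchymal transition, measured in 6 mouse brain tumours. They are the zinc finger repressors Snai1, Snai2, Zeb1 and Zeb2, the basic helix-loop-helix factors Twist1 and Twist2, the homeobox factor Prrx1, the runt factor Runx1, the intermediate filament protein Vim and the matrix protein Fn1. They were chosen by name, as all probes whose platform symbol is one of these 10 of the 19057 gene symbols on the array, and 26 probes met this. The tumours were HoxA5 tumours (n = 2) and mCherry tumours (n = 4). Both kinds arose in adult mice of the lines Ntva-Ink4a/Arf+/- and Ntva-Ink4a/Arf-/-, on a mixed FVB/N, C57BL6, BALB/C and 129 background, and carried a PDGFb virus. HoxA5 tumours received HoxA5 virus with it, and mCherry tumours, the controls, a virus for a fluorescent protein. The viruses were RCAS vectors, which enter cells that carry the tva receptor, here under the nestin promoter of neural progenitors. They were made by separate chicken DF1 fibroblasts, mixed and injected into the right frontal cortex. The labels do not tell the Ink4a/Arf genotype of single mice, nor whether each tumour came from its own mouse, so the p-values cover just the spread among these 6 samples. The question was whether raised HOXA5 makes such gliomas more aggressive.

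In epithelial and neural crest cells, Snai, Zeb and Twist factors repress genes of cell junctions such as E-cadherin, and cells that express them lose contacts, gain vimentin and fibronectin and move. Prrx1 marks mesenchyme of embryos and fibroblasts. Runx1, a regulator of blood stem cells, is among the factors linked to the mesenchymal expression class of human glioblastoma. Brain tissue has little epithelium, and several of these genes are also expressed by normal glia, vessels, microglia and fibroblasts.

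Promoter sequence is shown for Snai1 and Prrx1, the members with the smallest adjusted p-values between the groups. RefSeq promoters on GRCm38.p6 matched 7 of the 10 members, with 11 start sites. The 250 bases before the start of Snai1 lie at chr2:167537945-167538194 on the plus strand, and those of Prrx1 at chr1:163313651-163313900 on the minus strand. Capitals mark the E-box CACCTG, the letters that Snai and Zeb zinc fingers bind, in Snai1, and TAATTA, a core that homeodomain proteins bind, in Prrx1.
Snai1: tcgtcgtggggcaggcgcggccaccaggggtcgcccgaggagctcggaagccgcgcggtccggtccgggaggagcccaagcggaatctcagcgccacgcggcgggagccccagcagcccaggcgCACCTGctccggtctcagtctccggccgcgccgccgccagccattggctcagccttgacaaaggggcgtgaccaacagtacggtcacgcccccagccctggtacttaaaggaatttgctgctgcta
Prrx1: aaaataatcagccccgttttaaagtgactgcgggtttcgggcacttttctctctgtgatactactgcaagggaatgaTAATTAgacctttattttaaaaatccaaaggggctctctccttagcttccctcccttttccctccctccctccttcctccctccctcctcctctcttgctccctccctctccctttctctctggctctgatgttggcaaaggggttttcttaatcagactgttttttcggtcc
The E-box of Snai1 begins 126 bases before the start and TAATTA of Prrx1 begins 173 bases before it. Each motif was searched on both strands. CACCTG or its reverse CAGGTG was in 17.2% of 32851 promoter windows of this length, and TAATTA, its own reverse, in 4.84%. Among the members CACCTG was also in 1 of the 2 windows of Runx1, and TAATTA in no other member. A further motif, the Runx core TGTGGT, was searched in the same way. It was in 14% of the promoter windows and in no window of a member. These are matches of letters only, and no binding was measured.

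The arrays had median intensities of 136.1 to 166.8 and detected 19950 to 21904 probes. The array's Hoxa5 probe was above background on 0 of 6 arrays. Its position in the transcript is unknown, and it is therefore no check of the delivered gene. All 8 markers of oligodendrocyte progenitors and proneural glioma found on the array passed the detection filter, with Olig1, Olig2, Sox10, Pdgfra and Sox2 detected on all 6 arrays. Over all genes, which are not independent replicates, mCherry 4 stood nearer to HoxA5 tumours (r = 0.963 and 0.962) than to other mCherry tumours (0.921 to 0.957). Counts of calls that differ without it are given beside the results. In bulk tissue, fewer cells of a type and less RNA per cell cannot be told apart.

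Levels are normalized log2 intensities, and a gene is represented by its brightest detected probe. All 10 members passed the filter on dim probes, which kept probes whose detection p-value was below 0.05 on 2 or more arrays. Zeb1, Zeb2, Prrx1, Vim and Fn1 were detected on all 6 arrays. The other 5 were detected on both HoxA5 arrays and on 2 of the 4 mCherry arrays, so that their low values are near background and their differences are pulled towards 0.

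All 10 members had a higher mean in HoxA5 tumours, as did 54.8% of all genes tested. The differences of the members ran from 0.23 to 1.80 on the log2 scale. Snai1 alone rose past the threshold, a Benjamini-Hochberg adjusted p under 0.05 over all 12242 genes tested with limma, at 3.20-fold. That is 1 of 10 members, where 5.85% of all genes were called, 1.21% as higher and 4.64% as lower in HoxA5 tumours. For 7 of 10 members both HoxA5 tumours lay above all mCherry tumours, and this held for 18.3% of all genes. Without adjustment the same 7 members had p under 0.05, against 11.5% of all genes in that direction. The median difference was 1.32 over the members and 0.07 over all genes tested. The members were chosen with earlier results of these data known, so the counts describe the genes and are no independent support for a direction.

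**Figure D1:**
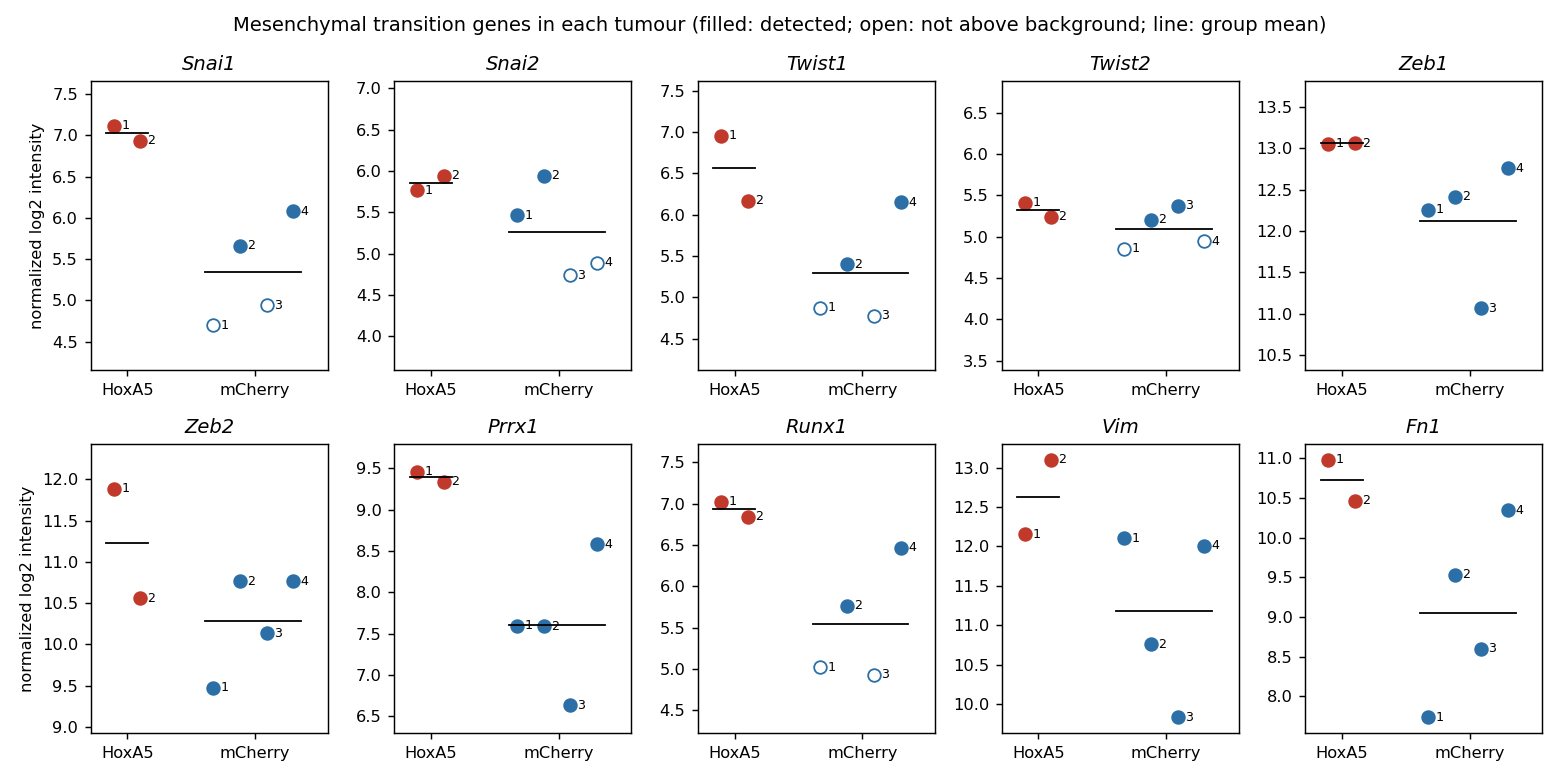
Normalized log2 intensity of each member (vertical axis, scaled per panel) in each tumour, HoxA5 on the left in red and mCherry in blue, with the replicate number beside each point. Filled points were detected, open ones were not above background, and lines are group means. Both HoxA5 points lie above all mCherry points for 7 of 10 genes.

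Snai1, a repressor of E-cadherin and an early inducer of transition, had 7.11 and 6.93 in HoxA5 tumours, against 4.70, 5.66, 4.94 and 6.08 in mCherry tumours. The deposited intensities of this probe were 274.4 and 269.3 in HoxA5 tumours, against 148.9, 176.7, 135.7 and 176.8 in mCherry tumours. The groups did not overlap, and mCherry 1 and mCherry 3 were not above background. The difference was 1.68 (SE 0.420, limma adjusted p = 0.0485), a 3.20-fold rise with a 95% confidence interval of 1.67-fold to 6.15-fold. Without background correction it was 0.63, and 0.66 in the authors' deposited values, both past the threshold. The call rested on each of 5 arrays: the adjusted p was 0.261 without HoxA5 1, 0.229 without HoxA5 2, 0.123 without mCherry 1, 0.0877 without mCherry 2 and 0.0817 without mCherry 3. Without mCherry 4 it was 0.00705. The second Snai1 probe was above background on 0 arrays.

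Snai2, a related repressor active in migrating neural crest, had 5.77 and 5.94 in HoxA5 tumours, against 5.47, 5.94, 4.74 and 4.89 in mCherry tumours. The groups overlapped, since HoxA5 1 lay below mCherry 2, and HoxA5 2 was at the level of mCherry 2 to 2 decimals. The difference was 0.60 (SE 0.374, limma adjusted p = 0.356), with an interval of -0.24 to 1.43.

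Zeb1, a repressor of epithelial genes that also acts in neural progenitors, was bright on every array. It had 13.05 and 13.06 in HoxA5 tumours, against 12.25, 12.41, 11.06 and 12.76 in mCherry tumours. Both HoxA5 tumours were above all mCherry tumours, the lowest of which, mCherry 3, stood well below the others. The difference was 0.94 (SE 0.402, limma adjusted p = 0.189), and 0.58 without mCherry 3. A second, dimmer Zeb1 probe differed by 1.25 and its groups overlapped.

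Zeb2, which neural crest, glial and microglial cells express, split the HoxA5 tumours. It had 11.89 and 10.56 in HoxA5 tumours, against 9.47, 10.77, 10.14 and 10.76 in mCherry tumours. HoxA5 1 was highest of all and HoxA5 2 lay below mCherry 2 and mCherry 4. The difference was 0.94 (SE 0.452, limma adjusted p = 0.232), and 0.28 without HoxA5 1, 1.60 without HoxA5 2. Of the other 4 Zeb2 probes 1 passed the filter, with a difference of 0.10.

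Twist1, a factor of cranial mesenchyme and skeletal precursors, had 6.96 and 6.17 in HoxA5 tumours, against 4.87, 5.40, 4.78 and 6.15 in mCherry tumours. The groups did not overlap, but HoxA5 2 was only 0.0151 above mCherry 4. The difference was 1.26 (SE 0.438, limma adjusted p = 0.119). Its relative Twist2, a repressor of dermal and bone precursors, had 5.41 and 5.24 in HoxA5 tumours, against 4.86, 5.21, 5.37 and 4.95 in mCherry tumours. The groups overlapped, and the difference of 0.23 (SE 0.271, limma adjusted p = 0.631) had an interval of -0.38 to 0.84.

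Prrx1 had the largest difference of the 10 members. It had 9.46 and 9.34 in HoxA5 tumours, against 7.60, 7.59, 6.64 and 8.58 in mCherry tumours. Both HoxA5 tumours were above mCherry 4, itself above the other mCherry tumours. The difference was 1.80 (SE 0.484, limma adjusted p = 0.0593), which is 3.48-fold with an interval of 1.64-fold to 7.38-fold, and it did not pass the threshold.

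Prrx1 is the member with the most probes, 6, which are annotated to 2 RefSeq transcripts and a cDNA clone. Of these, 4 passed the filter. The 3 brighter ones were detected on all 6 arrays and were higher in both HoxA5 tumours than in any mCherry tumour, by 1.80 and 2.05 for one transcript and by 1.78 for the other. With every detected probe fitted on its own, an alternative chosen after seeing the data, the Prrx1 probe at 2.05 passed (limma adjusted p = 0.0372), where 4.73% of 19479 probes were called. Its values were 8.74 and 8.47 in HoxA5 tumours, against 6.58, 6.28, 5.87 and 7.48 in mCherry tumours. The fourth Prrx1 probe, of the same transcript as the probe at 2.05, was not detected in mCherry tumours. It passed the filter through the HoxA5 arrays alone, which fixed its direction, and was higher there by at least 1.36-fold (limma adjusted p = 0.116). That bound sets the mean of both HoxA5 arrays against the mean, over mCherry arrays, of the higher of the probe's value and the lowest detected signal.

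Runx1 had 7.03 and 6.84 in HoxA5 tumours, against 5.02, 5.76, 4.93 and 6.47 in mCherry tumours. The groups did not overlap, and mCherry 1 and mCherry 3 were not above background. The difference was 1.39 (SE 0.453, limma adjusted p = 0.101), and 0.52 without background correction.

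**Figure D2:**
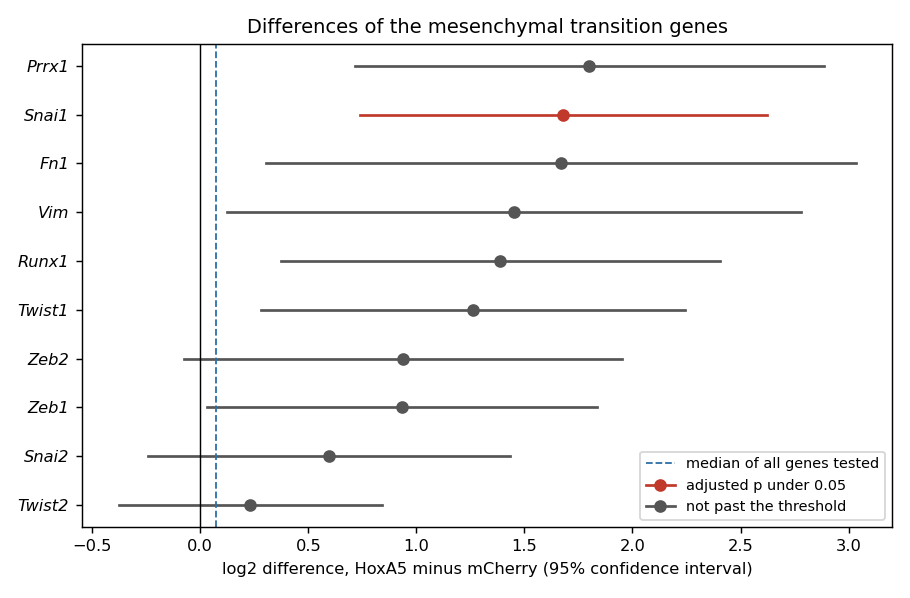
Log2 difference of each member, HoxA5 minus mCherry (horizontal axis), with its 95% confidence interval from limma over all genes, ordered by size. Snai1, in red, is the member past the threshold, and the dashed line at 0.07 is the median of all genes tested.

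Vim, the filament protein of mesenchymal cells, reactive astrocytes and neural progenitors, had 12.16 and 13.10 in HoxA5 tumours, against 12.10, 10.76, 9.84 and 12.01 in mCherry tumours. HoxA5 2 was highest, whereas HoxA5 1 was within 0.0546 of mCherry 1. The difference was 1.45 (SE 0.591, limma adjusted p = 0.170), and 0.98 without HoxA5 2. A second Vim probe was detected on HoxA5 1 alone.

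Fn1, the fibronectin of plasma and of matrix laid down by fibroblasts and vessels, had 10.98 and 10.46 in HoxA5 tumours, against 7.74, 9.53, 8.60 and 10.35 in mCherry tumours. The mCherry tumours spanned more than the distance between the group means, and mCherry 4 was within 0.116 of HoxA5 2. The difference was 1.67 (SE 0.608, limma adjusted p = 0.133), or 3.18-fold with an interval of 1.24-fold to 8.18-fold. A second probe differed by 1.90 with overlapping groups, and the other 2 were detected on 0 arrays.

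Single tumours shared an order over most members. HoxA5 1 had the highest level of 7 members and HoxA5 2 that of the other 3, Snai2, Zeb1 and Vim. Within the mCherry group, mCherry 4 was highest for 6 of 10 members, and the lowest was mCherry 3 for 6 and mCherry 1 for 4. The mean over the 10 members was 8.98 and 8.77 in HoxA5 tumours, against 7.41, 7.90, 7.10 and 8.30 in mCherry tumours. Without mCherry 4, 5 members passed the threshold, Snai1, Twist1, Prrx1, Runx1 and Fn1, with adjusted p-values of 0.00705, 0.0168, 0.00561, 0.0111 and 0.0138. In that fit 19.9% of all genes were called, 8.58% as higher in HoxA5 tumours. Without mCherry 1, mCherry 2 or mCherry 3, 0 members passed in limma, where 1.41%, 2.18% and 4.38% of all genes were called. In these 3 fits 6 to 7 members had an unadjusted p under 0.05. Leaving out a HoxA5 array leaves 1 tumour in that group. The median difference of the members was then 1.12 without HoxA5 1 and 1.54 without HoxA5 2.

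**Figure D3:**
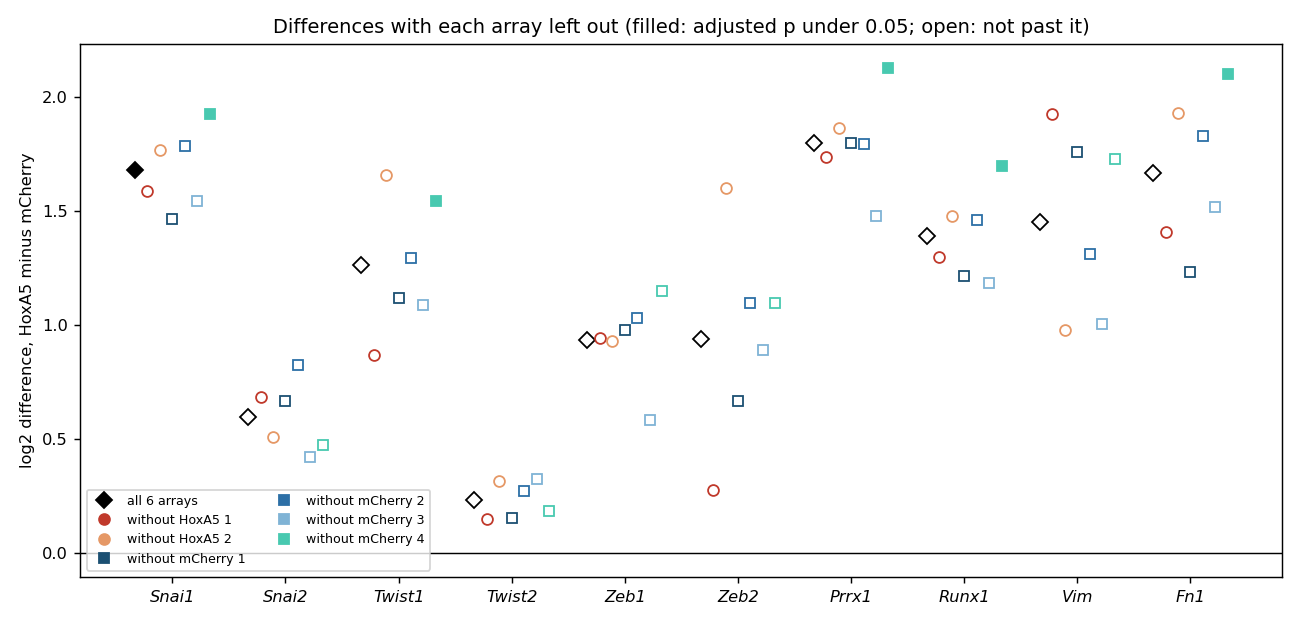
Log2 difference of each member, HoxA5 minus mCherry (vertical axis), with all arrays (diamonds) and with each array left out. Filled symbols passed an adjusted p under 0.05. All differences stay above 0, and filled symbols are those of Snai1 with all arrays and of 5 members without mCherry 4.

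The genes most alike to Snai1, Vim and Fn1 were found by the Pearson correlation of their log2 levels over the 6 arrays. This is a description, since the arrays form 2 groups and many genes are compared. For Snai1 they were the protocadherin Dchs1 (0.999), the hyaluronan synthase Has2 (0.998) and Ints7 (0.994), a subunit of the Integrator complex. For Vim they were the cell cycle kinase Cdk4, Nxt1 and the cadherin Cdh4 (0.997, 0.997 and 0.996). For Fn1 they were the lamin B receptor Lbr, the scaffold Iqgap1 and the phosphatase Inppl1 (0.998, 0.998 and 0.997). None of these 9 genes passed the threshold, with adjusted p-values from 0.0559 to 0.327.

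Mesenchymal effector genes, those of migration and matrix that rise in transition, held 3 genes that rose among 15 tested, where 1.21% of all genes rose. Lox, a collagen crosslinker, rose by 2.44 (SE 0.450, limma adjusted p = 0.0179). Tagln and Acta2, contractile proteins of smooth muscle and myofibroblasts, rose by 1.42 and 1.74 (limma adjusted p = 0.0318 and 0.0455). Tagln was detected on both HoxA5 arrays but on 1 of the 4 mCherry arrays. It passed the filter only with the HoxA5 arrays, which favoured a rise, and its mCherry values were near background. The matrix protein Tnc differed by 3.21 without passing (limma adjusted p = 0.0523). The list's median was 1.63, and 13 of 15 genes were higher, against 54.8% of all genes tested. The cadherin Cdh2, the partner of E-cadherin in the cadherin switch, differed by -0.10. Its probe was near background, with means of 5.51 in HoxA5 and 5.62 in mCherry tumours, and was detected on 3 of the 4 mCherry arrays. The value therefore says little about the gene. The number that rose was 0 without HoxA5 1, 0 without HoxA5 2, 0 without mCherry 1, 1 without mCherry 2, 2 without mCherry 3 and 11 without mCherry 4. The share of all genes that rose moved alike, being 0.0249%, 0%, 0.0666%, 0.176%, 0.805% and 8.58% in these 6 fits, and at least 6 had an unadjusted p under 0.05 in each of them.

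Epithelial junction and keratin genes, which the programme represses in epithelial cells, were mostly too dim to test, with 6 of 15 passing the filter. In limma 0 passed, and 1, Krt8, had an unadjusted p under 0.05. The E-cadherin gene Cdh1 had a mean of 5.30 in HoxA5 tumours and 5.87 in mCherry tumours, a difference of -0.57 (limma adjusted p = 0.380). The keratin Krt8 was at least 1.45-fold lower (limma adjusted p = 0.182) and Krt18 at least 1.02-fold lower (limma adjusted p = 0.242), neither being above background in HoxA5 tumours. The tight junction gene Cldn1 differed by -0.70 and was also lower in both HoxA5 tumours than in any mCherry tumour. Krt8 and Krt18 passed the filter through mCherry arrays alone, which fixed their direction. The list's median was -0.62, -0.42 over the other 4 genes, -0.38 without mCherry 3, -0.20 without background correction and -0.13 without the detection filter. Its mean was highest in mCherry 3, at 6.03. So was that of ependymal and choroid plexus genes, at 9.71, which are given in the closing section. The part of such cells in these levels was not tested.

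Among paralogues and protein partners 0 of 8 tested genes passed in limma, and 2 had an unadjusted p under 0.05. Such counts, here and in the other lists, stand beside 3014 of all 12242 genes with such a p in either direction. Of these, 1411 were higher in HoxA5 tumours. The 2 genes of this list were Kdm1a, the demethylase that Snai1 recruits, at 0.71, and Cbfb, the DNA-binding partner of Runx1, at 0.99. Hdac2, a deacetylase of such repressor complexes, differed by 0.48 and Tcf12, a dimer partner of Twist factors, by 0.80. The list's median was 0.61, and 2 genes rose without mCherry 4.

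Of the inducing signals 0 of 9 tested genes passed in limma, with 1 at an unadjusted p under 0.05. That gene was Tgfb1, the classic inducer of transition, at 1.59 (SE 0.691, limma adjusted p = 0.194). Tgfb3 differed by 0.49, and the receptors Tgfbr2 and Tgfbr1 by 0.61 and 0.38, all with overlapping groups. The list's median was 0.34, and 0.17 without mCherry 3.

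Of the regulators named for mesenchymal glioblastoma 0 of 10 tested passed in limma, and 3 had an unadjusted p under 0.05. Cebpd, an acute phase transcription factor, differed by 1.42 (limma adjusted p = 0.125). The Hippo pathway coactivator Wwtr1 differed by 1.03, its DNA-binding partner Tead1 by 1.01 and Relb, of the NF-kappaB family, by 0.96. The list's median was 0.87, and 0.53 without HoxA5 1, and 3 genes rose without mCherry 4.

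Partners of Vim and Fn1 did not pass either, 0 of 6 filament genes and 0 of 7 fibronectin receptors and matrix partners in limma, with 2 of each at an unadjusted p under 0.05. The filament gene Des differed by 1.83 (limma adjusted p = 0.0853) and Nes, the nestin of neural progenitors, by 1.95 (limma adjusted p = 0.128), while Plec and Lmna differed by 0.50 and 0.48. The subunits of the classic fibronectin receptor, Itga5 and Itgb1, differed by 1.79 and 1.63 (limma adjusted p = 0.108 and 0.126), and both are also effector genes above. The crosslinker Tgm2 differed by 1.13 and Itgav by 1.15. The median of the filament genes was 0.49, and 0.22 without HoxA5 1, 0.77 without HoxA5 2 and 0.30 without mCherry 1. That of fibronectin partners was 1.13, and 0.35 without HoxA5 1 and 0.52 without mCherry 1. Without mCherry 4, 2 genes of each list rose.

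Markers of several other cell types also differed between the groups, in either direction. Of 9 neuron genes tested all fell, and their mean was 8.70 to 9.76 in HoxA5 tumours against 11.17 to 12.90 in mCherry tumours, lowest among these in mCherry 4. Of 8 myelin genes 6 fell, with means of 8.98 to 9.72 in HoxA5 tumours and 10.90 to 11.82 in mCherry tumours. Rbfox3, the neuronal antigen NeuN, fell by 3.74, and the myelin gene Mal fell by 3.08. Without HoxA5 2, 0 neuron and 0 myelin genes passed in limma, with 9 and 6 at an unadjusted p under 0.05. Leaving out each other array gave 5 to 9 neuron and 4 to 6 myelin genes that fell, 5 of the neuron genes without HoxA5 1, 5 without mCherry 1 and 6 without mCherry 2, and 4 of the myelin genes without mCherry 1.

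Of 9 fibroblast and meninges genes 6 rose, and their mean was 9.08 to 10.67 in HoxA5 tumours against 7.14 to 8.17 in mCherry tumours. The proteoglycans Lum and Dcn rose by 3.16 and 1.91. Lrrc15, known from activated fibroblasts, was undetected in all mCherry tumours and entered the test through the HoxA5 arrays alone, and without it 5 of 8 genes rose. The number that rose was 0 without HoxA5 1, 0 without HoxA5 2, 3 without mCherry 1, 3 without mCherry 2 and 3 without mCherry 3, 3 with sex as a block and 8 without mCherry 4. With all arrays 9 had an unadjusted p under 0.05 in limma, 8 of them higher, while Thy1 was lower, at -1.14, with overlapping groups. At least 8, in either direction, had one in each of these fits that kept both HoxA5 tumours. The list's median was 2.53, and 1.56 without HoxA5 1 and 3.18 without HoxA5 2. HoxA5 1, highest for 7 members, had the higher fibroblast mean of the 2 HoxA5 tumours, and also the higher neuron and myelin means. HoxA5 2 had the higher mean of the cycling cell genes, given next. Of 9 cycling cell genes 5 rose, with means of 9.25 to 9.56 in HoxA5 tumours and 5.82 to 8.32 in mCherry tumours, highest among these in mCherry 4 and lowest in mCherry 3. Ube2c, a ubiquitin-conjugating enzyme of mitosis, was detected in HoxA5 tumours alone, and without it 4 of 8 rose. The number that rose was 0 with sex as a block, 0 without HoxA5 1, 0 without HoxA5 2, 0 without mCherry 1, 1 without mCherry 2, 3 without mCherry 3 and 9 without mCherry 4, with at least 5 at an unadjusted p under 0.05 in each of these limma fits.

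The list means of vessel, microglia and macrophage markers overlapped between the groups. Pericyte and mural genes had means of 7.45 to 7.78 in HoxA5 tumours and 7.06 to 8.11 in mCherry tumours, and 1 of 8, Vtn, fell. The genes of this list differed in both directions. Of the 8, 3 had a higher mean in HoxA5 tumours without passing, Pdgfrb by 1.32, Cspg4 by 1.24 and Anpep by 1.22, and the rest a lower one. Anpep, detected on 1 of the 4 mCherry arrays, passed the filter only with the HoxA5 arrays. In limma 0 of 9 endothelial genes passed, with 1 at an unadjusted p under 0.05 and means of 8.24 to 8.74 in HoxA5 tumours and 7.35 to 8.50 in mCherry tumours. In limma 0 of 10 microglia and macrophage genes passed, with 0 at an unadjusted p under 0.05 and means of 9.22 in both HoxA5 tumours and 8.81 to 9.41 in mCherry tumours. The means of monocyte and neutrophil genes did not overlap, at 6.67 to 7.27 in HoxA5 tumours and 5.08 to 6.56 in mCherry tumours. Of these 5 genes limma passed 0, with 4 at an unadjusted p under 0.05, and their median difference was 1.22. Without mCherry 4, 3 of them rose, and 1 endothelial gene. The part of these cell types in the levels of the 10 members was not tested.

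**Figure D4:**
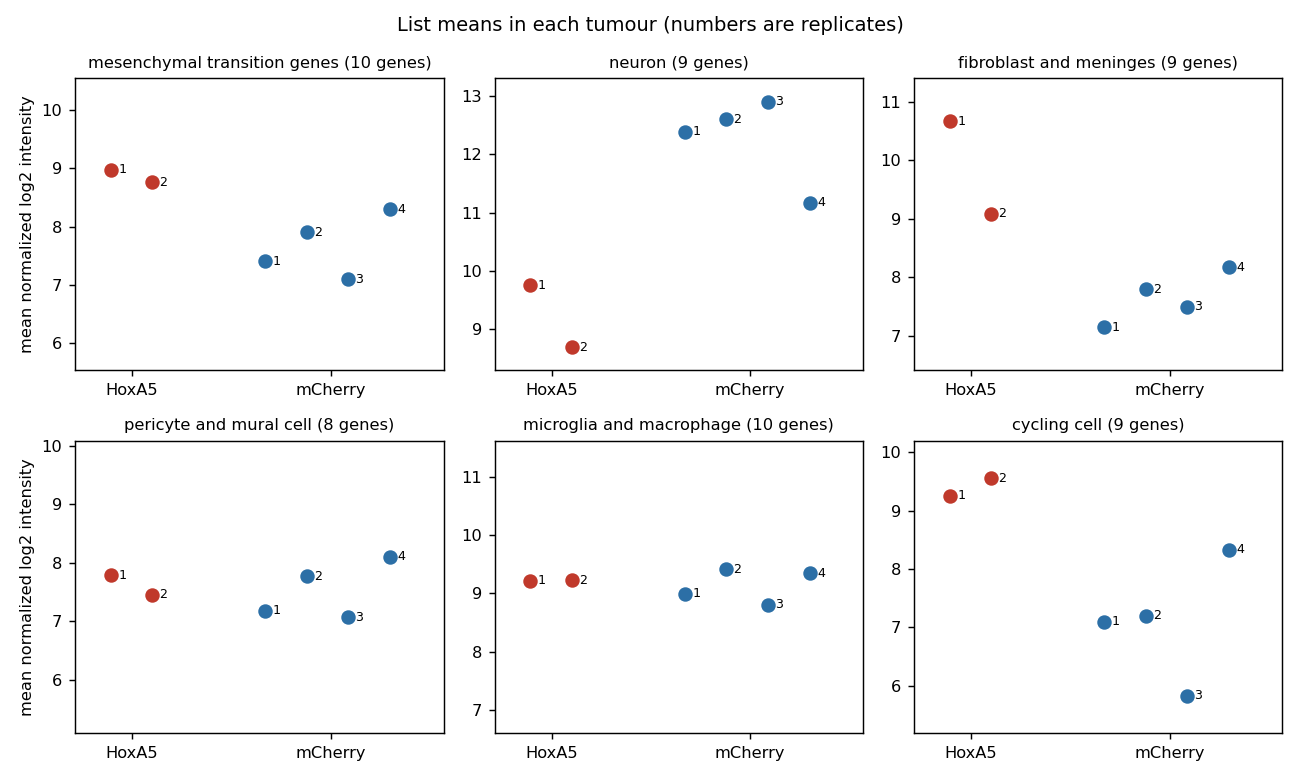
Mean normalized log2 intensity over the tested genes of a list (vertical axis) in each tumour, HoxA5 in red on the left and mCherry in blue, with replicate numbers. The means of the 10 members, of fibroblast genes and of cycling genes are higher in both HoxA5 tumours than in any mCherry tumour, neuron genes are lower, and microglia and pericyte genes overlap.

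Each group held both sexes, read from Xist and Eif2s3y, with HoxA5 1, mCherry 1 and mCherry 2 male. With sex as a block the difference of Snai1 was 1.68 again, with a limma adjusted p of 0.0909, and 0 members passed in limma, with 6 at an unadjusted p under 0.05, where 2.76% of all genes were called and 0.253% as higher.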

How the data were processed

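Total RNA from 6 tumours was hybridised to Illumina mouse bead arrays, per the labels' protocols. The authors deposited 1 intensity per probe and array, without normalization, for 45281 probes (lowest 102.5), and a detection p-value beside each, per the file headers. The authors also deposited processed log2 values, for which the submitters' processing notes name limma without a version or steps. These run from 6.83 to 15.03 with a median of 7.29 and lie within 0.135 of log2 quantile-normalized intensities, so the scale is taken as log2 while the background step remains unknown.

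With neqc (offset 16) in limma 3.58.1 under R 4.3.3, intensities were background-corrected from the detection p-values, quantile-normalized and log2-transformed. Differences of dim probes are pulled towards 0 by the offset, and quantiles can hide a change in total RNA. Probes with 1 symbol in the platform annotation (34885, against 18 with several and 10378 with none) and a detection p under 0.05 on at least 2 arrays were kept, the brightest per gene. The GRCm38.p6 gene table held 19034 of the 19057 symbols. HoxA5 was set against mCherry with lmFit and eBayes with an intensity trend (4 residual and 5.52 prior degrees of freedom), and p-values were adjusted over all 12242 genes. The procedure was tested on simulated data. The files name no slide or scan, so no such batch was checked. The number of arrays limits the precision.

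The members and the 19 gene lists were chosen with earlier results of these data known. The text names all members, up to 4 tested genes of smallest p in each of 7 pathway lists, up to 2 in each of 12 cell type lists, and the 3 genes most correlated with Snai1, Vim and Fn1. Cdh2, Lrrc15, Thy1, Pdgfrb, Cspg4, Anpep, Aqp1, Foxj1 and the glioma markers were named after their values were seen. Lists of astrocyte, T cell and choroid plexus genes are given in the closing section. The alternatives were other background, scaling, detection, probe and variance choices, array weights, a block for sex or replicate number, changed thresholds and each array left out. Fitting every probe on its own, and leaving genes detected in 1 group only out of the lists, were added after seeing the data.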

Additional observations from a re-analysis of the deposited data

How the results depend on the processing

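Over all genes, 716 were called, 148 higher and 568 lower in HoxA5 tumours, and 1 of 10 members, Snai1. Leaving out 1 array gave 2 to 2411 genes and 0 to 5 members. The genes called numbered 119 without HoxA5 1, 2 without HoxA5 2, 169 without mCherry 1, 261 without mCherry 2 and 2411 without mCherry 4. Array weights gave 1746 genes and 5 members, sex as a block 338 genes and 0 members, an adjusted p under 0.1 1509 genes and 2 members, and under 0.01 106 genes and 0 members. Members called were 2 with median scaling (Snai1 and Prrx1). They were 0 without a detection filter, when detection on all 6 arrays was required (which left 5 members), and without an intensity trend. With every probe on its own they were 0 by each gene's brightest probe, while a dimmer Prrx1 probe passed, as given above. In these limma fits with 0 members called, 4 to 7 members had an unadjusted p under 0.05. Calls higher in HoxA5 tumours were 20.7% of all calls, and 37.7% with median scaling, where the median difference of all genes was 0.20 and that of the members 1.38. The replicate number shared by the groups, entered as a replicate block, gave 905 genes and 2 members, Snai1 and Fn1. Deviations from the group means correlated at -0.36 for the pair numbered 1 and -0.24 for the pair numbered 2. With 2 HoxA5 arrays their deviations are mirror images, so these values cannot tell whether the numbers pair the samples. The groups share them only as numbers, and the main fit held no such block. The median of the pericyte list, -0.039, changed sign with median scaling (0.075), array weights (0.044), the replicate block (0.21), without HoxA5 1 (0.21), without HoxA5 2 (0.0011) and without mCherry 4 (0.19), and ran from -0.18 to 0.21 with 1 array left out; the cause was not tested. The 10 member differences kept their sign under every alternative that gave a value. Without background correction those of Snai1, Snai2, Twist1, Twist2 and Runx1 were over 1.5 times smaller. Signal over background limits Snai1, Snai2, Twist1, Twist2 and Runx1 most, each not detected on 2 mCherry arrays.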

Other observations

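Astrocyte genes had means of 10.89 to 10.94 in HoxA5 tumours and 11.29 to 12.04 in mCherry tumours, and 2 of 8 fell, the connexins Gjb6, which fell by 2.90, and Gja1, which fell by 1.28 (limma adjusted p = 0.0133 and 0.0373). The number was 0 without HoxA5 1, 0 without HoxA5 2 and 0 without mCherry 1, with 4 at an unadjusted p under 0.05 in these limma fits, 1 without mCherry 2, 1 with sex as a block and 4 without mCherry 4. Of 6 ependymal and choroid plexus genes 3 fell, among them Ttr, the thyroxine carrier, which fell by 8.37, and Clic6, which fell by 3.65. The third, Kl, and Folr1 were detected in mCherry tumours alone, and over the other 4 genes 2 fell. Ttr was above background on 1 of the 2 HoxA5 arrays, with 5.17 in HoxA5 1 and 7.03 in HoxA5 2. The size of its fall is therefore uncertain. Aqp1 and Foxj1 were not lower, differing by 1.08 and 0.24 with overlapping groups. Of all 6, 1 fell without HoxA5 1 and 1 without HoxA5 2. The list had means of 5.93 to 6.00 in HoxA5 tumours and 7.72 to 9.71 in mCherry tumours. Of 3 T and NK cell genes tested 0 passed in limma and 0 had an unadjusted p under 0.05, 2 of them being detected in mCherry tumours alone, with means of 4.68 to 4.82 in HoxA5 tumours and 5.00 to 5.54 in mCherry tumours. Oligodendrocyte progenitor and proneural glioma genes had means of 10.39 to 10.77 in HoxA5 tumours and 8.73 to 10.40 in mCherry tumours, and 0 of 8 passed in limma, with 2 at an unadjusted p under 0.05, and 2 passed without mCherry 4.

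No member and none of the lists had an mCherry tumour whose gap to the nearest other passed the Dixon limit for 4 samples, over 30 groups checked. The HoxA5 group, with 2 tumours, is too small for that check.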
